A study of Arabidopsis thaliana with 8 samples.

Results

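The pif4 hybrid was compared with the Col hybrid at 27 °C, a warm growth temperature for Arabidopsis thaliana. Both are crosses to the accession C24: in the Col hybrid the other parent is Col, and in the pif4 hybrid it carries pif4-101, a mutant PIF4 allele. Whole seedlings of both hybrids were stratified in the cold, germinated for 1 day at 22 °C in short days of 8 h light, then kept at 27 °C and harvested when the lights came on (ZT0) at 4 or 7 days after sowing. The comparison takes 4 of the 8 libraries of the series, chosen by their titles: 2 of the pif4 hybrid and 2 of the Col hybrid, paired by day. The other 4 libraries are the same hybrids and days at 22 °C. Each condition had 1 library made from a pool of seedlings, so the spread between pools of 1 condition was not measured. The p-values set a difference against how far matched differences varied at both temperatures. That spread was estimated with 2 residual and 16.5 prior degrees of freedom, so it was mostly shared across genes. The C24 parent can also pass on its own copy of PIF4, and the generation of the seedlings and the copies they carry are not given in the sources used here.

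PIF4 is a basic helix-loop-helix transcription factor of the phytochrome-interacting factor (PIF) family, which promotes hypocotyl and petiole elongation in warmth and shade. Phytochrome B in its active form binds PIF4 and leads to its breakdown, the clock protein ELF3 limits its transcription, and warmth relieves both. PIF4 binds G-box and related E-box sequences in promoters and raises transcription of auxin synthesis genes, auxin response genes and wall-loosening enzymes.

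Total counts at 27 °C were 9128810 for the Col hybrid and 20898400 for the pif4 hybrid on day 4, and 25440561 and 11125696 on day 7. The pif4 library was thus the deeper of its pair on day 4 and the shallower on day 7, by 1.19 on the log2 scale each time. Levels below are library-scaled counts (CPM, edgeR with TMM factors), which are not corrected for transcript length and are compared only between libraries. Values for single libraries carry counting error only. Markers of green tissue and of root were read in all 4 libraries at 27 °C, with a summed level of 21780 to 39970 CPM for 15 light-harvesting and Rubisco genes and 38.2 to 66.6 CPM for 6 root genes. Day separated the 4 libraries on the principal component that held 74.1% of the variance.

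PIF4 itself, on chromosome 2 (17886101 to 17889087, TAIR10.1), was read at 175 CPM in the Col hybrid and 186 CPM in the pif4 hybrid on day 4, with exact Poisson 95% intervals of 167 to 184 and 180 to 191 CPM. On day 7 it was at 187 CPM in the Col hybrid (182 to 192) and 157 CPM in the pif4 hybrid (150 to 165). The pif4 library was the higher on day 4 and the lower on day 7, and the mean log2 difference was −0.08 (SE 0.17, edgeR adjusted p = 1.0). The transcript level therefore does not check which PIF4 copies the seedlings carried, and the genotype rests on the labels.

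Of 20054 genes tested at 27 °C, 23 differed between the hybrids in edgeR's quasi-likelihood test at an adjusted p under 0.05, which is 0.115% of those tested. Of these, 8 were higher in the pif4 hybrid (0.0399%) and 15 were lower (0.0748%). At an unadjusted p under 0.05 there were 760 genes (3.79%). The genes that fell make up 2 groups. In the first are 8 genes lower on both days, among them the jasmonate sulfotransferase gene ST2A and the wall enzyme gene XTH15, and in the other are 7 genes, mostly of seeds and embryos, that were read on day 4 and hardly at all on day 7. In whole seedlings, fewer cells of a type and less RNA per cell cannot be told apart.

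The count depends strongly on which libraries estimate the spread. With the 4 libraries at 27 °C alone, 36 genes were higher and 67 lower, and these held all 23. With day ignored the counts were 0 and 0, and DESeq2 gave 2 and 4. Leaving out 1 of the 27 °C libraries leaves 1 pair there, and the counts then ran from 362 higher and 119 lower (without the Col hybrid of day 4) to 552 and 765 (without the Col hybrid of day 7), with 366 and 120 without the pif4 hybrid of day 4 and 535 and 749 without the pif4 hybrid of day 7. These 4 fits hold only 2 distinct comparisons, the day 7 pair and the day 4 pair, each without a replicate at 27 °C and with a spread taken from the 22 °C pairs. Of the 23 genes, the 8 that rose and the 8 that fell on both days passed with either pair, and the other 7 only with the day 4 pair, in fits that passed many more genes. Leaving out any 1 of the 22 °C libraries gave 37 higher and 66 lower.

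**Figure D1:**
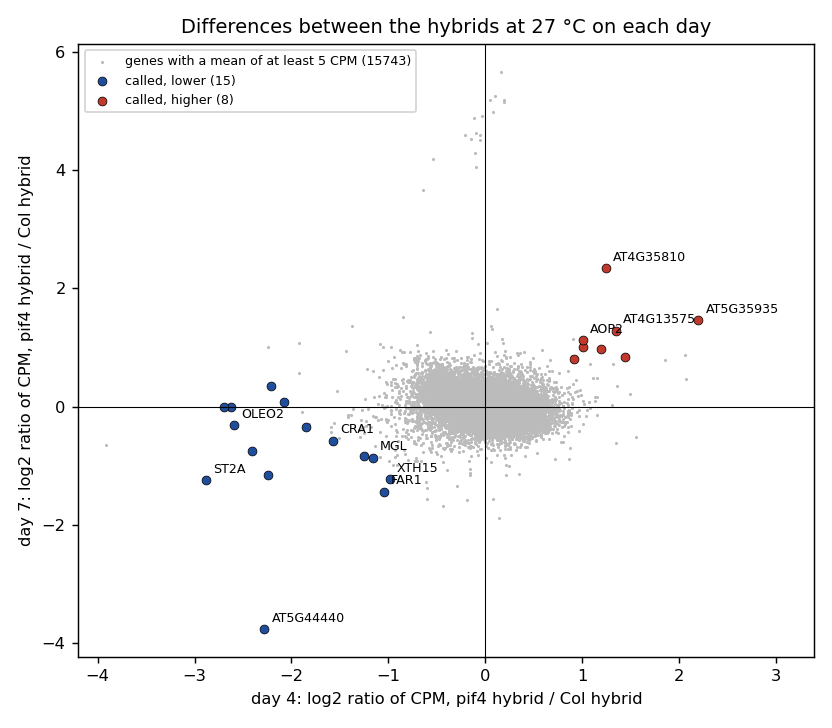
Log2 ratio of CPM (pif4 hybrid over Col hybrid) at 27 °C on day 4 (x axis) and day 7 (y axis). Grey points are the 15743 genes whose mean reached 5 CPM, and larger points are the 8 that rose and the 15 that fell. Most grey points lie within 1 log2 unit of 0, and 17 grey points stand apart at day 7 ratios of 3.66 to 5.66.

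ST2A, which sulfates hydroxylated jasmonates, was at 255 CPM in the Col hybrid and 34.5 CPM in the pif4 hybrid on day 4, and at 226 and 95.7 CPM on day 7. Both Col libraries were above both pif4 libraries. The mean log2 difference was −2.06 (SE 0.27, edgeR adjusted p = 0.00224), a level 4.16-fold lower in the pif4 hybrid. ST2A lies on chromosome 5 (2174668 to 2176446). At 22 °C its level was 20.8 CPM in the Col hybrid and 7.95 CPM in the pif4 hybrid on day 4, and 19.9 and 11.8 CPM on day 7.

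XTH15, a xyloglucan endotransglucosylase/hydrolase that remodels the primary wall, was at 394 CPM in the Col hybrid and 199 CPM in the pif4 hybrid on day 4. On day 7 its levels were 149 and 63.5 CPM. The pif4 library was the lower within each day, although the pif4 level of day 4 exceeded the Col level of day 7. The difference was −1.104 (SE 0.20, edgeR adjusted p = 0.0246), or 2.15-fold. AT5G44440, of the berberine bridge enzyme-like family of FAD-binding oxidases, showed the steepest fall of the 23, from 107 to 22.0 CPM on day 4 and from 36.5 to 2.56 CPM on day 7 (−2.83, SE 0.43, edgeR adjusted p = 0.00806). At 22 °C AT5G44440 was at 31.5 CPM in the Col hybrid and 2.104 CPM in the pif4 hybrid on day 4, but at 0.176 and 1.17 CPM on day 7.

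FAR1, a fatty acyl-CoA reductase that makes fatty alcohols of suberin, was at 53.2 and 25.7 CPM (Col and pif4 hybrid) on day 4 and at 81.9 and 30.2 CPM on day 7. All of its Col levels exceeded its pif4 levels, with a difference of −1.25 (SE 0.17, edgeR adjusted p = 0.00239). MGL, methionine gamma-lyase, which breaks down methionine, was at 148 and 66.5 CPM on day 4 and at 100 and 55.0 CPM on day 7 (−1.01, SE 0.17, edgeR adjusted p = 0.0171). AT1G12080, annotated as a vacuolar calcium-binding protein-like gene, was at 369 and 69.1 CPM on day 4 and at 245 and 145 CPM on day 7 (−1.58, SE 0.28, edgeR adjusted p = 0.0221). Its difference was much wider on day 4 (log2 ratio −2.41) than on day 7 (−0.75), with 1 pair each and no test between days.

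AT4G35720, a gene of the DUF241 family of unknown function, was the weakest expressed of these 8, at 13.5 and 2.73 CPM on day 4 and 7.46 and 3.26 CPM on day 7 (−1.79, SE 0.28, edgeR adjusted p = 0.00816). ATPMEPCRD, of the pectin methylesterase family that modifies wall pectin, was at 51.9 and 21.8 CPM on day 4 and at 56.0 and 31.1 CPM on day 7 (−1.05, SE 0.16, edgeR adjusted p = 0.00816). ATPMEPCRD lies at 17902370 to 17904443 on chromosome 2, 13283 bp beyond PIF4. Within 100 kb of PIF4, 48 of 74 annotated genes were tested and ATPMEPCRD was the 1 that passed. An unadjusted p under 0.05 was found there for 3 genes, the others being PAR1 (−0.43) and IPMI2 (0.43), and the median difference of the 48 was 0.01.

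All 8 of these genes were higher at 27 °C than at 22 °C in both hybrids on both days, which was so for 24.3% of all genes tested. The comparisons of temperature and of hybrid share the 27 °C libraries. At 22 °C, 5 of the 8 were lower in the pif4 hybrid in both pairs, where 25.9% of all genes were. FAR1, for example, was at 13.6 and 8.18 CPM (Col and pif4 hybrid) at 22 °C on day 4 and at 23.3 and 21.5 CPM on day 7.

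**Figure D2:**
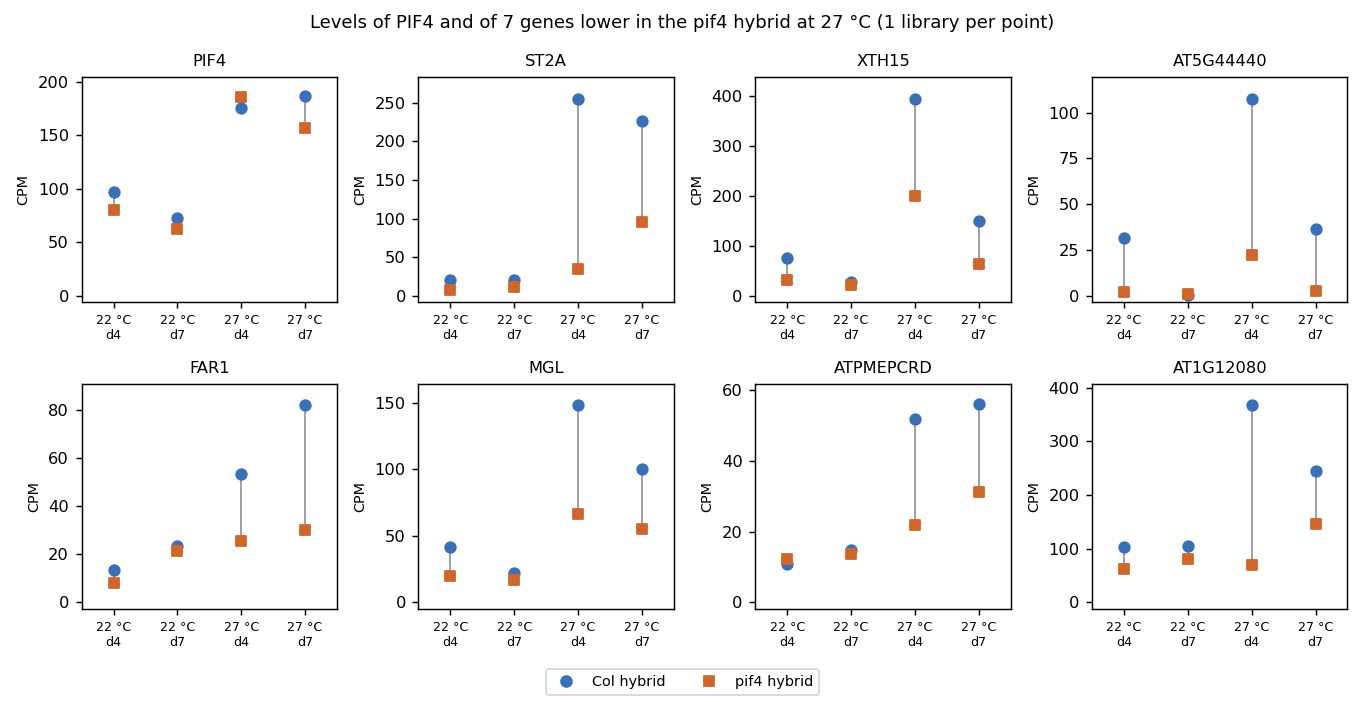
CPM of PIF4 and of 7 genes that fell in the pif4 hybrid at 27 °C (y axis of each panel) in the 8 libraries, with temperature and day on the x axis; circles are the Col hybrid, squares the pif4 hybrid, lines join a pair, and each point is 1 library with no error bar. ST2A shows 255 and 226 CPM in the Col hybrid at 27 °C against 34.5 and 95.7 CPM in the pif4 hybrid, while the PIF4 symbols lie close together within every pair.

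The genes that rose in the pif4 hybrid were fewer and included several of unknown function. Their levels were 1.82 to 3.55-fold higher. A run of 3 neighbours on chromosome 4 were among them: HTA4, a histone H2A gene (7884516 to 7885982), and the uncharacterised genes AT4G13572 (7887440 to 7888748) and AT4G13575 (7890249 to 7893761). AT4G13575 was at 10.3 and 26.3 CPM (Col and pif4 hybrid) on day 4 and at 16.9 and 41.5 CPM on day 7. Its pif4 libraries both exceeded its Col libraries, with a difference of 1.32 (SE 0.16, edgeR adjusted p = 0.00192). AT4G13572 was at 11.3 and 22.9 CPM on day 4 and 13.0 and 26.2 CPM on day 7 (1.01, SE 0.16, edgeR adjusted p = 0.0113). HTA4 was at 5.72 and 15.8 CPM and at 8.69 and 15.7 CPM (1.12, SE 0.20, edgeR adjusted p = 0.0223). The nearest tested neighbours, UNE15 on one side (0.56) and AT4G13580 on the other (−0.43), did not pass.

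AT5G35935, annotated as a pseudogene on chromosome 5, had the largest rise, from 3.67 to 17.41 CPM on day 4 and from 3.77 to 10.7 CPM on day 7 (1.83, SE 0.24, edgeR adjusted p = 0.00213). Its groups did not overlap at 22 °C either, with 5.73 and 2.02 CPM in the Col libraries and 11.5 and 6.90 CPM in those of the pif4 hybrid. LTP6, a lipid transfer protein gene, was at 3.56 and 8.37 CPM on day 4 and 8.73 and 17.37 CPM on day 7 (1.08, SE 0.19, edgeR adjusted p = 0.0218). AOP2 is a glucosinolate side-chain gene annotated as a pseudogene in the Col reference. It was at 4.97 and 10.1 CPM on day 4 and at 89.8 and 196 CPM on day 7 (1.09, SE 0.20, edgeR adjusted p = 0.0393). The pif4 library was higher on each day, but day moved AOP2 more than the hybrid did.

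AT4G22485, a further protease inhibitor/lipid transfer family gene, was at 67.8 and 128 CPM on day 4 and at 15.8 and 27.5 CPM on day 7 (0.86, SE 0.16, edgeR adjusted p = 0.0436). AT4G35810, a 2-oxoglutarate-dependent oxygenase gene, was at 3.46 and 8.37 CPM and at 0.633 and 3.79 CPM (1.80, SE 0.33, edgeR adjusted p = 0.0287). AOP2, AT4G22485 and AT4G35810 no longer passed when only genes with 50 counts in the library of median size were kept, or when counts were thinned to the shallowest 27 °C library. At 22 °C, 6 of the 8 genes that rose were also higher in the pif4 hybrid in both pairs. Of all genes, 29.8% had both 22 °C pairs on the side of their difference at 27 °C. The Col library of day 4 at 22 °C held few counts of some, such as 6 of AT4G35810 and 8 of AT5G35935. At 27 °C, 5 of the 8 genes that rose were lower than at 22 °C in all 4 pairs of hybrid and day. That was so for 22.9% of all genes tested, and this comparison shares the 27 °C libraries with that of the hybrids. Chromosome 4 held 6 of the 8, with 3020 of the tested genes.

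**Figure D3:**
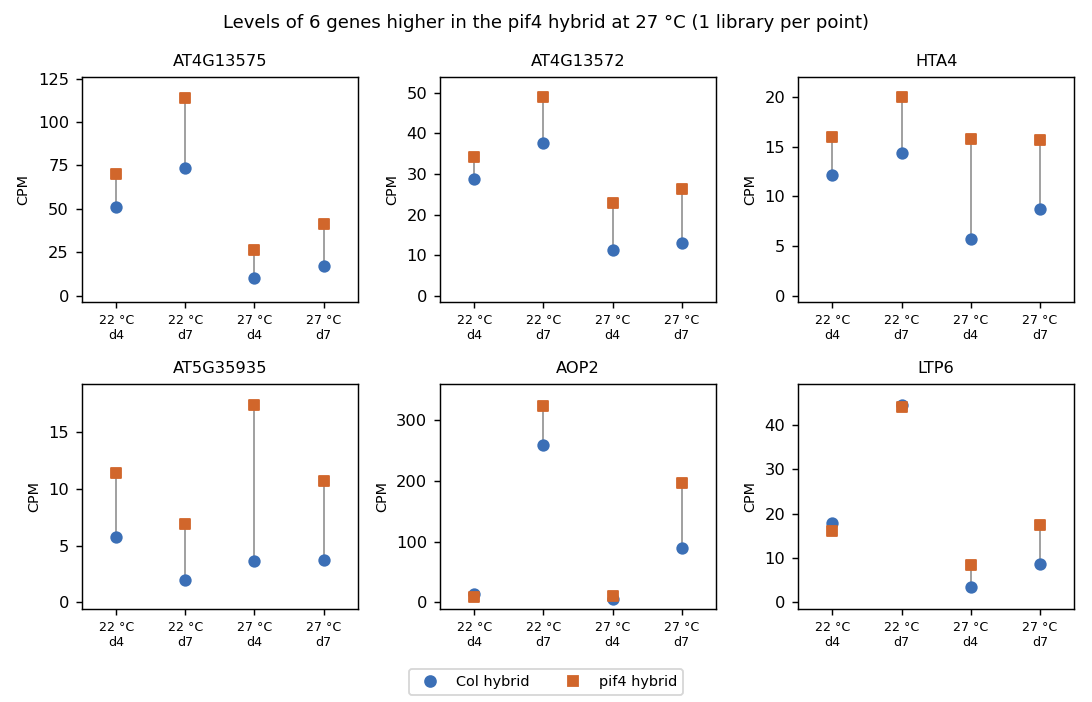
CPM of 6 genes that rose in the pif4 hybrid at 27 °C (y axis of each panel) in the 8 libraries, with temperature and day on the x axis; circles are the Col hybrid, squares the pif4 hybrid, and each point is 1 library with no error bar. In every panel the square lies above the circle in both 27 °C pairs, as for AT4G13575 at 26.3 against 10.3 CPM on day 4 and 41.5 against 16.9 CPM on day 7.

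The other 7 genes that fell rest on day 4 alone. They include OLEO2, an oleosin that coats seed oil bodies, CRA1, a 12S seed storage globulin, and TIP3;1, an aquaporin of protein storage vacuoles. CRA1 was at 76.9 CPM (712 counts) in the Col hybrid and 25.8 CPM (585 counts) in the pif4 hybrid on day 4, and at 0.0704 and 0 CPM (2 and 0 counts) on day 7. OLEO2 was at 26.8 and 4.32 CPM (248 and 98 counts) on day 4 and had 1 and 0 counts on day 7. Neither gene exceeded 1 CPM in any library at 22 °C. The fitted differences were −1.58 for CRA1 (SE 0.26, edgeR adjusted p = 0.0150) and −2.63 for OLEO2 (SE 0.32, edgeR adjusted p = 0.00194), and describe the single pair of day 4. With so few counts on day 7, those p-values do not measure how far the 2 pairs at 27 °C varied.

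TIP3;1 was at 24.6 and 5.20 CPM on day 4 (Col and pif4 hybrid) and at 0.246 and 0.353 CPM on day 7. AT3G17520, a late embryogenesis abundant protein gene, was at 46.5 and 10.9 CPM on day 4 and at 0.493 and 0.529 CPM on day 7. TSPO, a membrane protein gene read mainly in dry seeds and under abscisic acid, was at 29.2 and 7.98 CPM and at 0.598 and 0.441 CPM. AT5G35660, of a glycine-rich family, was at 32.6 and 5.16 CPM on day 4, and AT5G55410, of the lipid transfer and 2S albumin superfamily, at 12.5 and 1.81 CPM, and both had no counts at 27 °C on day 7. In all 7 genes the Col library of day 4 at 27 °C was above every other library.

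Of 6 seed storage markers listed, 4 were tested and 2 fell, OLEO2 and CRA1, where 0.0748% of all genes tested did. OLEO1 (−2.02, edgeR adjusted p = 0.358) and PER1 (−1.53, edgeR adjusted p = 0.438) did not pass. SESA1 had no counts in any library, and CRU3 had at most 5. The summed level of the 4 tested markers was 137 CPM in the Col hybrid on day 4 at 27 °C and 37.0 CPM in the pif4 hybrid, against 0.774 to 3.45 CPM in the other 6 libraries. A difference between the hybrids and one between single pools cannot be told apart with 1 library per condition.

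**Figure D4:**
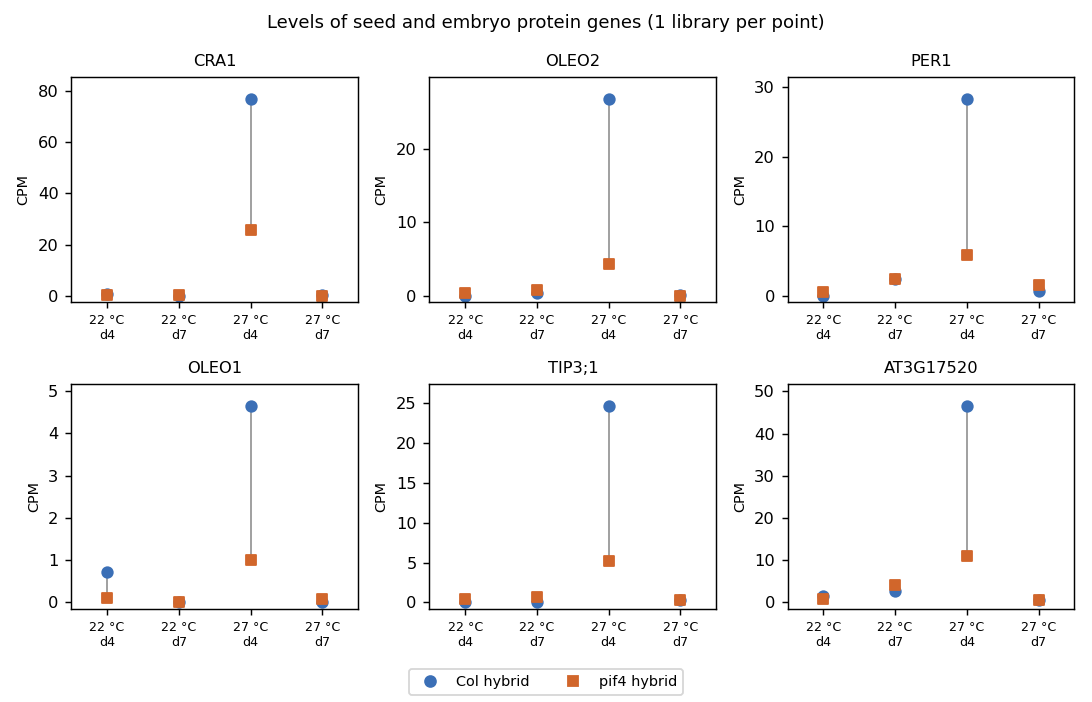
CPM of 6 seed and embryo protein genes (y axis of each panel) in the 8 libraries, with temperature and day on the x axis; circles are the Col hybrid, squares the pif4 hybrid, and each point is 1 library with no error bar. Only the 27 °C day 4 pair rises clearly off the axis, with CRA1 at 76.9 CPM in the Col hybrid and 25.8 CPM in the pif4 hybrid.

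Genes that PIF factors are known to induce in shade and warmth lay mostly below 0 in the pif4 hybrid, and few passed singly. Of 32 listed, 31 were tested. Among these 2 fell (ST2A and XTH15) and 0 rose, where 0.0748% and 0.0399% of all genes did. At an unadjusted p under 0.05, 14 were lower, against 1.98% of all genes. Of the 31, 29 lay below 0, where 47.1% of all genes did, and 17 were lower in both pairs, where 19.5% of all genes were. Their median log2 difference was −0.28, beside 0.01 over all genes tested. The members of the list were chosen with earlier results of these data known, so these shares are no independent test. FT, the flowering signal, had no counts in any library.

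Among the auxin genes of that list, IAA19, a repressor of auxin response that auxin itself induces, was at 49.0 and 16.5 CPM (Col and pif4 hybrid) on day 4 and at 16.6 and 13.8 CPM on day 7. Its difference of −0.96 (SE 0.25) had an edgeR adjusted p of 0.277. IAA29 was at 90.4 and 56.0 CPM and at 49.9 and 34.9 CPM (−0.60, SE 0.19, edgeR adjusted p = 0.632). YUC8, a flavin monooxygenase of auxin synthesis, was at 20.9 and 13.6 CPM and at 12.2 and 9.26 CPM (−0.51, SE 0.18, edgeR adjusted p = 0.818). All 3 genes were lower in the pif4 library on each day, and none passed.

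Of the shade regulators, FHL, which carries phytochrome A into the nucleus, was at 28.4 and 15.2 CPM on day 4 and at 20.6 and 13.7 CPM on day 7 (−0.75, SE 0.18, edgeR adjusted p = 0.200). PIL1, a PIF-related protein, was at 19.8 and 11.2 CPM and at 17.0 and 11.9 CPM (−0.67, SE 0.18, edgeR adjusted p = 0.309). ATHB2, a homeodomain-leucine zipper factor of shade growth, was at 139 and 91.5 CPM and at 138 and 113 CPM (−0.45, SE 0.17, edgeR adjusted p = 0.907). CKX5, a cytokinin oxidase, was at 27.3 and 21.2 CPM and at 19.5 and 11.8 CPM (−0.54, SE 0.18, edgeR adjusted p = 0.720). FHL, PIL1, ATHB2 and CKX5 were each lower in the pif4 library on both days, at log2 ratios from −0.89 (FHL, day 4) to −0.28 (ATHB2, day 7).

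The share below 0 was higher on day 4 than on day 7, with no test between days. On day 4, 29 of the 31 genes were lower in the pif4 hybrid, with a median log2 ratio of −0.68, where 46.9% of all genes were lower. On day 7 18 of the 31 were, with a median of −0.09, near the 50.7% of all genes. The 6 SAUR genes of the list, small auxin-induced growth proteins, were all lower on day 4 and all higher on day 7. Their levels on day 4 were 9.61 to 22.6 CPM in the Col hybrid and 5.69 to 14.2 CPM in the pif4 hybrid, and on day 7 8.02 to 23.2 and 12.3 to 28.8 CPM. Depth moved with this: the 100 most abundant genes had median ratios of −0.45 on day 4 and 0.60 on day 7, in the opposite direction to the depth difference, and its part in these values was not tested. With the log2 library total as a covariate, 6 of the 31 fell and 28 lay below 0, with a median of −0.29. The depth differences of the pairs at 27 °C were of equal size and opposite sign, so they largely cancel in the mean difference. That fit therefore cannot show the part of depth in the change between days. Without a day 4 library at 27 °C 18 lay below 0 (median −0.09), and without a day 7 library 29 did (median −0.69). Such fits leave 1 pair at 27 °C, so they restate the values of day 7 and of day 4 and are no further check.

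The same genes also lay mostly below 0 at 22 °C, where 28 of the 31 lay below 0 (49.1% of all genes) with a median of −0.27. There 22 were lower in both pairs (25.9% of all genes). IAA29, for example, was at 63.8 and 16.1 CPM (Col and pif4 hybrid) at 22 °C on day 4 and at 35.5 and 20.0 CPM on day 7. The 22 °C and 27 °C pairs share no library. The median ratio of the list at 22 °C was −0.52 on day 4 and −0.10 on day 7. Total counts at 22 °C were 1664128 for the Col hybrid and 8880735 for the pif4 hybrid on day 4. On day 7 they were 11711681 and 17884174, so the pif4 library was the deeper of each 22 °C pair. The part of depth in these 22 °C values was not tested.

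**Figure D5:**
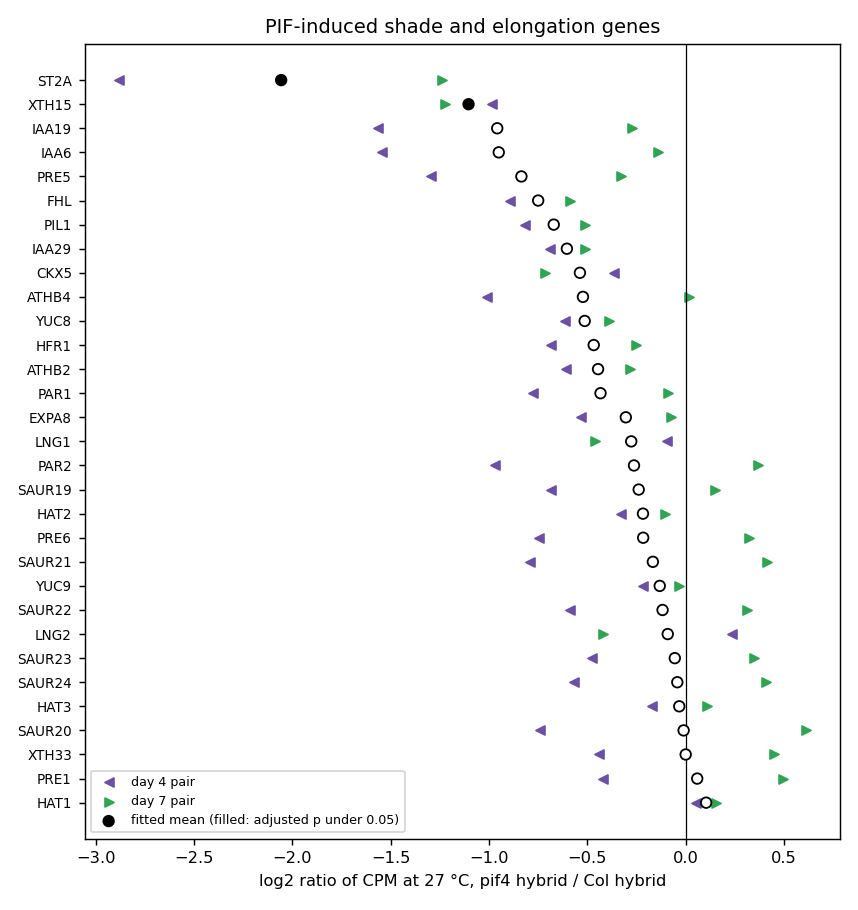
Log2 ratio of CPM at 27 °C (x axis, pif4 hybrid over Col hybrid) for the 31 tested PIF-induced shade and elongation genes (y axis), with the day 4 pair and the day 7 pair as triangles and the fitted mean as a circle, filled where the edgeR adjusted p was under 0.05. The 2 filled circles are ST2A and XTH15, and 29 of the 31 means lie left of 0.

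To show what PIF4-type binding sequences look like near these genes, the windows of 250 bases before the annotated gene start are printed 5′ to 3′ on the gene's strand (RefSeq TAIR10.1) for MGL (chr1:24028580-24028829, plus strand), IAA19 (chr3:5263751-5264000, plus strand), FHL (chr5:437115-437364, plus strand) and ST2A (chr5:2176447-2176696, minus strand). The first of these fell, IAA19 and FHL have a G-box among the PIF-induced list, and ST2A fell with no match. Capitals mark the G-box CACGTG and the PBE-box CACATG or its reverse complement CATGTG, and both strands were searched.
MGL: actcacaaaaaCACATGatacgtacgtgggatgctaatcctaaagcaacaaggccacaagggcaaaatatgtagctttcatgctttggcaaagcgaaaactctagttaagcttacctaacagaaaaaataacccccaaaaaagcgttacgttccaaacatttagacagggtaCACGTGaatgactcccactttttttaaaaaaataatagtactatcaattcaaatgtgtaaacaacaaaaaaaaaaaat
IAA19: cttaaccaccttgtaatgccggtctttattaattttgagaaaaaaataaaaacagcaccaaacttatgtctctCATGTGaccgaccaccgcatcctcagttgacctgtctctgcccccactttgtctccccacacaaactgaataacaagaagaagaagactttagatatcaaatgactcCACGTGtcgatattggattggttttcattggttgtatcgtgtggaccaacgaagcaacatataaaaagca
FHL: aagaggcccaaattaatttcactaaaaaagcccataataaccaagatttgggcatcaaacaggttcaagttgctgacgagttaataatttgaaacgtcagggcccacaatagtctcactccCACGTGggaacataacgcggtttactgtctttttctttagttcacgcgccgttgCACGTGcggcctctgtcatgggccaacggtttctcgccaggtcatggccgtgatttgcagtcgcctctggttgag
ST2A: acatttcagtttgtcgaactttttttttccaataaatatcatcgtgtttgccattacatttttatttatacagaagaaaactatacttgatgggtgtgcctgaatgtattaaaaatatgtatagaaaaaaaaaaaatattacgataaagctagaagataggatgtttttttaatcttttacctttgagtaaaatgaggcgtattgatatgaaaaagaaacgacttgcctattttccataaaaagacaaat

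A G-box stood in 7.42% of the windows of all genes tested and a PBE-box in 11.1%. Of the 15 genes that fell, 3 held a G-box (AT5G35660, AT3G17520 and MGL) and 3 a PBE-box (MGL, AT1G12080 and TIP3;1). Of the 8 genes that rose, 0 held a G-box and 1 a PBE-box, AOP2. In the PIF-induced list 2 of 31 windows held a G-box, IAA19 and FHL, and 13 held a PBE-box (41.9%). The G-box of MGL lies 78 bases and its PBE-box 239 bases before the gene start, that of IAA19 lies 70 bases before it, and FHL has 2, at 129 and 75 bases. A match is a stretch of letters and not a measured binding site.

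Within the PIF family none of 8 members passed. PIF8 was at 16.4 and 26.3 CPM on day 4 and at 10.8 and 13.5 CPM on day 7 (0.50, SE 0.17, edgeR adjusted p = 0.751). PIF5, the closest relative of PIF4, was at 180 and 226 CPM and at 185 and 179 CPM (0.14, SE 0.18, edgeR adjusted p = 1.0). PIF1 (0.13), PIF3 (−0.14), PIF6 (−0.21) and PIF7 (0.23) had edgeR adjusted p-values of 1.0. Of 22 tested regulators that act upstream of PIF4, 0 passed and 1 had an unadjusted p under 0.05, BBX18, a B-box protein of thermal growth (0.46, SE 0.18, edgeR adjusted p = 0.998). ELF3, the evening repressor of PIF4, was at 32.6 and 34.5 CPM and at 42.5 and 27.1 CPM (−0.29, SE 0.18, edgeR adjusted p = 1.0).

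No member of the other hormone and growth lists passed, beyond genes already given. Of all genes tested, 47.1% lay below 0 and 19.5% were lower in both pairs. Of 18 auxin genes 14 lay below 0 (median −0.22), but the median ratio was −0.36 on day 4 and 0.10 on day 7, and 8 were lower in both pairs. Among them 5 had an unadjusted p under 0.05: IAA19, IAA29, YUC8 and IAA6 below 0 and CYP79B2, of indole glucosinolate and auxin synthesis, above it (0.51, SE 0.18, edgeR adjusted p = 0.800). Of 13 gibberellin genes 11 lay below 0 (median −0.20) and 7 were lower in both pairs, while their median at 22 °C was 0.04. The smallest p belonged to the receptor gene GID1A (−0.31) and the DELLA gene RGL1 (−0.40), at an edgeR adjusted p of 1.0. The lowest difference was that of the weakly read GA2OX8 (−0.79). Of 11 cell cycle genes 10 lay below 0 (median −0.17) and 7 were lower in both pairs, with MCM7 of the replicative helicase at −0.25. The 9 brassinosteroid genes had a median of −0.03, and the biosynthesis gene DWF4 was at −0.06. Of 17 clock genes 7 lay below 0 (median 0.04), with CCA1 at 0.31 and 1 unadjusted p under 0.05, for PRR3 (−0.64).

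Light-harvesting genes had opposite signs on the 2 days. All 15 light-harvesting and Rubisco genes were lower in the pif4 hybrid on day 4 and all 15 were higher on day 7, with median ratios of −0.59 and 0.81, so that their mean was near 0 (0.08) and 0 passed. LHCB1.1, an antenna protein gene, was at 3660 and 2256 CPM on day 4 and at 1874 and 3594 CPM on day 7. These are among the most abundant transcripts, and the 100 most abundant genes had the same signs, as given above with depth. At 22 °C the median ratios of the 15 genes were −0.75 on day 4 and −0.34 on day 7. The pif4 library was the deeper of each 22 °C pair, and the part of depth was not tested. PORA, the protochlorophyllide reductase of dark-grown seedlings, was lower on both days, at 5.72 and 2.03 CPM and at 4.26 and 1.94 CPM, with a difference of −1.33 (SE 0.36, edgeR adjusted p = 0.303). Of the 13 chlorophyll synthesis genes 11 lay above 0 (median 0.24), with medians of −0.09 on day 4 and 0.40 on day 7. In both pairs 4 were higher and 1 was lower, where 21.9% and 19.5% of all genes were. CAO, chlorophyllide a oxygenase, was among those higher in both, at ratios of 0.26 and 0.30 (edgeR adjusted p = 1.0).

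Of the small heat shock protein genes tested, HSP17.6A, HSP17.4 and HSP17.6II were higher in the pif4 hybrid on day 7 without passing, and HSP18.2 was at 2.60 and 2.82 CPM (0.01). HSP17.6A was at 14.6 and 36.5 CPM on day 7 and at 1.296 and 1.366 CPM on day 4 (1.099, SE 0.26, edgeR adjusted p = 0.189). HSP17.4 was at 11.7 and 23.0 CPM and HSP17.6II at 4.08 and 11.7 CPM on day 7 (0.90 and 1.60, edgeR adjusted p = 0.310 and 0.186). The median of the 10 tested heat shock genes was 0.17. Among 6 root markers 5 lay above 0 (median 0.31). In both pairs 3 were higher and 1 was lower, where 21.9% and 19.5% of all genes were. The iron transporter gene IRT1 was at 3.99 and 17.3 CPM on day 4 and at 5.95 and 8.29 CPM on day 7 (1.22, SE 0.26, edgeR adjusted p = 0.116). The ferric reductase gene FRO2, which works with IRT1, was at 7.13 and 13.4 CPM and at 6.02 and 6.26 CPM (0.49, SE 0.21, edgeR adjusted p = 1.0), and CASP1 of the endodermis was at −0.47. At 22 °C IRT1 was at 88.8 and 170 CPM on day 4 and at 50.1 and 84.8 CPM on day 7. FRO2 was there at 53.7 and 85.3 CPM and at 22.8 and 41.5 CPM, while the median of the 6 markers at 22 °C was −0.41.

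Lists of defence, flowering, pigment and stomatal genes held no gene with an unadjusted p under 0.05. In these, 10 salicylic acid genes had a median of 0.00113, 9 flowering genes of 0.05, 3 flavonoid genes of 0.10 and 6 stomatal lineage genes of 0.18. Only 3 of 10 listed flavonoid genes and 9 of 13 flowering genes passed the filter on low counts.

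Whether the hybrids differed more at 27 °C than at 22 °C was tested as the genotype-by-temperature term. No gene passed (0 of 20054, 0% by edgeR and 0 by DESeq2), and 325 had an unadjusted p under 0.05 (1.62%). The smallest p-values belonged to OLEO2 (−3.95), TSPO (−2.56) and AT3G17520 (−2.30), all of the group read on day 4 alone. At 22 °C itself 0 genes passed (0%, edgeR) and 427 had an unadjusted p under 0.05 (2.13%), and DESeq2 was not run on that contrast. Of the 23 genes that passed at 27 °C, 7 had an unadjusted p under 0.05 at 22 °C. Of these 7, 6 kept the same direction and TIP3;1 had the opposite one (2.92, SE 1.23). TIP3;1 was hardly read at 22 °C. The Col libraries held 0 and 1 counts of it (day 4 first), and the pif4 libraries 4 and 12. Such counts are too few to establish a reversal. Among the 23 genes, 11 had both 22 °C pairs on the same side as at 27 °C, where 29.8% of all genes did. ST2A differed by −0.97 at 22 °C (SE 0.32), XTH15 by −0.79 (SE 0.22) and MGL by −0.69 (SE 0.20), each less than at 27 °C, but the terms of the difference did not pass (−1.08, −0.31 and −0.32).

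The pairs of the 2 days shared few large differences. Of the 15743 genes whose mean at 27 °C reached 5 CPM, 29 were at least 2-fold higher (0.184%) and 76 at least 2-fold lower (0.483%) in the pif4 hybrid on day 4, and 41 (0.26%) and 20 (0.127%) on day 7. Those higher on both days numbered 4, AT4G13572, AT4G13575, AT5G35935 and AOP2, and those lower on both days 4, AT5G44440, ST2A, AT4G35720 and FAR1. A further 5 genes differed at least 2-fold in opposite directions. Across the 15743 genes, which are not independent replicates, the ratios of day 4 and day 7 had a Pearson r of −0.18 and a Spearman rho of −0.28. Depth differed in opposite directions on these days, and its part in the negative sign was not tested.

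A set of 17 genes read at 8.01 to 280 CPM in 6 libraries was at 0.263 to 18.5 CPM in both Col hybrid libraries of day 7. They were picked after their values were seen, as the genes at least 4-fold higher in the pif4 hybrid on day 7 at both temperatures. They include EIF2 GAMMA of translation initiation, PDH-E1 ALPHA and PDH-E1 BETA of the plastid pyruvate dehydrogenase, KAS III of fatty acid synthesis, 2-Cys Prx B, a chloroplast peroxiredoxin, and the receptor kinase gene LRR XI-23. PDH-E1 ALPHA was at 237 and 222 CPM (Col and pif4 hybrid) on day 4 at 27 °C, but at 6.41 and 162 CPM on day 7. LRR XI-23 was at 146 and 164 CPM on day 4 and at 1.79 and 98.2 CPM on day 7. At 22 °C the set showed the same picture, with a median of 5.35 CPM in the Col hybrid on day 7 and 63.5 to 78.7 CPM in the other 3 libraries.

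Of these 17 genes, 15 have a symbol that contains a space in the TAIR10.1 annotation, as do 52 of all 20054 genes tested (0.259%), and the 2 without are PRP39-2 and CST. In the other 37 genes with such a symbol the day 7 log2 ratios lay between −0.86 and 0.82 at 27 °C, and between −0.46 and 0.49 at 22 °C. On day 4 no gene was at least 4-fold higher in the pif4 hybrid at both temperatures and 1 was at least 4-fold lower, and on day 7 none was at least 4-fold lower. None of the 17 passed the test at 27 °C, although 16 had an unadjusted p under 0.05. They are 17 of the 41 genes that were at least 2-fold higher on day 7, leaving 24 without them. Whether the Col libraries of day 7 were counted in another way was not tested.

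For some named genes the counts are uncertain because the annotation has an overlapping gene. FAR1 overlaps AT5G22505, MGL and XTH15 overlap the ends of AT1G64670 and AT4G14120, and OLEO2, TIP3;1 and HTA4 overlap AT5G40410, AT1G73200 and AT4G13564. AT4G13575 and AT4G06130 overlap on the same strand, and AT4G22485 overlaps AT4G22475 on the opposite strand. The labels name 2 library kits, of which 1 keeps the strand, without tying either to a library, so reads of such partners cannot be told apart here.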

How the data were processed

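The authors deposited 1 table of unnormalised read counts for 33602 loci in 8 libraries. The submitters' processing notes name HTSeq 0.6.1p1, StringTie 1.3.5, Picard, HISAT2 and FastQC 0.11.5 and the build TAIR10, without roles or settings. Strand setting, handling of duplicates and the mapping of C24 alleles are not given in the sources used here. Symbols, coordinates and upstream windows come from RefSeq TAIR10.1, in which 32835 loci were found.

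A gene was tested where it reached 0.876 CPM, equal to 10 counts at the median depth, in at least 2 of the 4 libraries at 27 °C, which left 20054. Counts were scaled by TMM and tested with edgeR 4.0.16 (R 4.3.3, quasi-likelihood F-test, two-sided, Benjamini-Hochberg over all genes tested, threshold 0.05). The model held a block for each temperature and day and a hybrid effect within each temperature, so that the effect at 27 °C is the mean of 2 matched pairs, with 2 residual and 16.5 prior degrees of freedom. The standard error (SE) is the size of the log2 change divided by the root of its F statistic. Ratios within a day have no test and used log2 CPM (prior count 2). An exact permutation test of 2 libraries against 2 could not go below p = 0.333. The model was checked on counts simulated from its own fit. Such counts vary independently between libraries, so this check does not show how the test performs on these data.

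Genes were named by rule: PIF4 and its family, up to 8 that rose and 8 that fell most with 1 sign in both pairs and a mean that reached 5 CPM, the 3 of smallest p from each of 17 lists, and the 3 of smallest p for the interaction. The other genes that passed, and further members of the PIF-induced list, neighbours of a named gene and the 17 genes low in both Col libraries of day 7, were added after their values were seen. The members and lists were chosen with earlier results of these data known. Alternatives were another model, scaling (DESeq2 1.42.0 size factors, loess offsets with limma 3.58.1), the DESeq2 Wald test, filters, depth and leaving out libraries. No library was left out of the main comparison.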

Additional observations from a re-analysis of the deposited data

How the results depend on the processing

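The directions of the genes that passed held in most settings, while the numbers passing did not. Against 8 higher, 15 lower and 0 for the genotype-by-temperature term, the 27 °C libraries alone gave 36 and 67, a model with day and temperature as additive terms gave 1 and 0, and day ignored (no block) gave 0 and 0. DESeq2's Wald test gave 2 and 4, loess offsets 11 and 23, no filter 48, 88 and 6, a filter of 50 counts 5 and 14, the log2 total as covariate 63, 109 and 46, and thinning 5 and 15. Without both 22 °C day 4 libraries, a setting chosen after seeing the data, the counts were 37, 66 and 17. Leaving out 1 library in turn gave 37 to 552 higher, 66 to 765 lower and 10 to 654 for the interaction, where the lone remaining sample is assumed to vary like the other groups. Fewer libraries leave fewer residual degrees of freedom, and the spread then comes from the pairs of the other temperature alone. The cause of the wide range of gene counts was otherwise not tested. Direction turned for OLEO1 under DESeq2 (0.0931) and with the total as covariate (0.50), and for AT5G35660 with that covariate (0.67). Leaving out 1 library, TIP3;1 ran from −2.24 to 0.50, AT3G17520 from −2.095 to 0.101, OLEO1 from −2.19 to 3.49, ATHB4 from −1.02 to 0.0156 and PIF4 from −0.25 to 0.0819. AT5G35660 and AT5G55410 gave no value without a day 4 library at 27 °C, having no counts in the remaining pair. No paired analysis by replicate number was possible because the labels give 1 library per condition; the pairs are of the same temperature and day. Depth limits genes near 0.105 to 0.324 CPM, the level of 3 counts in the 27 °C libraries.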
